A study of Mus musculus with 473 samples.

Results

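P7.MB.2 is a cluster label given to 11 midbrain cells sorted from mice at postnatal day 7 (P7), and it was compared here with the 64 P7 midbrain cells labelled P7.MB.1 (39 cells), P7.MB.3 (10 cells) or P7.MB.4 (15 cells). The members were taken from the cluster label of each cell, so 75 of the 473 cells of the series entered the comparison. All 75 cells came from hemizygous Th:EGFP BAC transgenic mice, line Tg(Th-EGFP)DJ76Gsat/Mmnc, on a Swiss Webster background, in which regulatory DNA of the tyrosine hydroxylase gene drives a green reporter. Midbrain tissue of 5 P7 mice was pooled, and EGFP-positive cells were sorted singly into Smart-Seq2 lysis buffer. Sorting on the reporter selects every cell that fluoresces, whatever its transmitter, which limits these cells as a model of dopaminergic neurons. The cluster labels were made from the expression of these same cells and the mice were pooled, so cells are not replicates of animals and a cluster against the rest is no test. Values are therefore given as descriptions, with the SD over cells and without p-values.

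Midbrain dopaminergic neurons make dopamine from tyrosine through the enzymes Th and Ddc, with the cofactor supplied through Gch1. They load it into vesicles with Slc18a2 and recover it with the transporter Slc6a3, and transcription factors such as Pitx3, En1, Foxa1, Foxa2, Lmx1a, Lmx1b and Nr4a2 set and hold this identity. Meis1 and Meis2 belong to the TALE homeobox family, bind DNA together with Pbx partners and act in the patterning of the tectum and in forebrain interneurons. Rprml encodes a small relative of the membrane protein reprimo.

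The values were FPKM, fragments scaled to transcript length and to library size, and a gene is called detected in a cell at an FPKM of 1 or more. On library plate TH02_18.20.16 the labelled number of expressed genes matched the number detected in the column of the same name (Pearson r = 0.999, 95 cells). On plates TH02_16.18.20 and TH02_20.16.18 it did so only after the columns of the plates were exchanged well by well, with r rising from -0.034 to 0.999 (95 cells) and from -0.052 to 0.999 (94 cells). The exchange was used throughout, and the values of the markers and several other genes are also given for plate TH02_18.20.16 alone, where 4 P7.MB.2 cells stood against 26 others. The plates TH02_16.18.20 and TH02_20.16.18 held 3 and 4 P7.MB.2 cells against 17 and 21 others. The labelled number of genes per cell ran from 5258 to 7233 in P7.MB.2 (median 6243) and from 4081 to 7872 in the other cells (median 6060.5). FPKM keeps no record of read number, so the depth behind each value is unknown. The FPKM total of a cell had a median of 309488 in P7.MB.2 and 275816 in the others.

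The upstream windows of Th, Sst and Slc17a6 are shown because the level of Th separated P7.MB.2 from the other 3 clusters without overlap and Sst and Slc17a6 were among the genes highest in P7.MB.2. Each is the 250 bases before the RefSeq start on the GRCm38.p6 assembly, 5′ to 3′ on the strand of the gene. They lie at chr7:142899996-142900245 on the minus strand, chr16:23890845-23891094 on the minus strand and chr7:51621580-51621829 on the plus strand, respectively. Capitals in Th and Sst mark the cAMP response element TGACGTCA, and capitals in Slc17a6 mark the Meis core motif TGACAG in its reverse reading CTGTCA. Only windows that hold the marked motif were shown, so its presence in them is no result.
Th: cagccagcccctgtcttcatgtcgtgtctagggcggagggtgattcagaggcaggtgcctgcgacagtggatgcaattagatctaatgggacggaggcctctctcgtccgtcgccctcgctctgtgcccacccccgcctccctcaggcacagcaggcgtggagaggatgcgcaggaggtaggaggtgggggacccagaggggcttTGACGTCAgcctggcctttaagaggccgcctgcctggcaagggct
Sst: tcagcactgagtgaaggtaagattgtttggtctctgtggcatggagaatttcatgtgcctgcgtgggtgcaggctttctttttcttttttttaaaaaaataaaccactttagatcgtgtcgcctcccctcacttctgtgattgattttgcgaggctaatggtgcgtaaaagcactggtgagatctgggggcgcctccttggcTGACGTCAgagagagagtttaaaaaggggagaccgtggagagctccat
Slc17a6: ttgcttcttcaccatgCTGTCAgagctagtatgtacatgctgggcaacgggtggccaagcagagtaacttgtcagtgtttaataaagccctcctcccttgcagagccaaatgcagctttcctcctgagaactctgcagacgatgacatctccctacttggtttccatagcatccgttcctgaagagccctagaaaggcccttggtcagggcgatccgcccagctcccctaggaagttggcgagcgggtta
The first motif base lay 45 bases before the start in Th, 48 in Sst and 234 in Slc17a6. TGACGTCA was in 1.55% of the 32851 upstream windows of this length and TGACAG in 15.9%, on either strand. Of the 15 named genes highest in P7.MB.2, 11 had a window, and TGACGTCA was found in those of Sst and Sstr2 and TGACAG in those of Rbfox1 and Slc17a6. Of the 15 lowest, 11 had a window, with TGACGTCA in that of Th and TGACAG in those of Aldh1a1 and Tacr3. The NBRE AAAGGTCA, bound by Nr4a2, was in none of these windows and in 1.34% of all windows. None of the 3 motifs contains another, and a match is a description of letters and not a bound site.

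The 3 markers named for the cluster were found in P7.MB.2 and in few of the 64 other labelled cells. Meis2 (GRCm38 chromosome 2, 115863064 to 116065839, minus strand) ran from 0 through a median of 47.6 to 175 FPKM in the 11 cells. In the 64 other cells its highest value was 0.772 FPKM and its median 0. The mean was 57.8 ± 62.6 (SD, n = 11 cells) against 0.0183 ± 0.101 (SD, n = 64 cells), a log2 fold of 5.85 after 1 FPKM was added to each mean. Meis2 was detected in 7 of 11 cells (63.6%, exact binomial 95% interval 30.8 to 89.1%) and in 0 of 64 (upper limit 5.6%). These intervals and those below cover counting error only. All 7 cells with Meis2 lay above each of the 64 other labelled cells, and the other 4 P7.MB.2 cells could not be told from the rest by this gene. On plate TH02_18.20.16 alone the log2 fold was 6.17.

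Meis1 (chromosome 11, 18879817 to 19018985, minus strand) ran from 0 through a median of 17.6 to 120 FPKM in P7.MB.2, with a highest value of 4.62 FPKM in the others. Its mean was 28.7 ± 37.2 against 0.14 ± 0.671 FPKM, a log2 fold of 4.70, and it was detected in 6 of 11 and 3 of 64 cells. All 6 cells lay above each of the 64 others, but none of them was on plate TH02_16.18.20, where Meis1 was below 1 FPKM in all 3 P7.MB.2 cells and the log2 fold was -0.35. On plate TH02_18.20.16 alone it was 5.76.

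Rprml (chromosome 11, 103649570 to 103650579, plus strand) was the least widespread of the 3 markers. It was detected in 5 of 11 P7.MB.2 cells and in 1 of 64 others, at a mean of 19.3 ± 41.4 against 0.181 ± 1.45 FPKM. The log2 fold was 4.10, and 5.49 on plate TH02_18.20.16 alone. A single cell at 139 FPKM held 65.5% of the P7.MB.2 sum, and without the highest cell of either group the log2 fold was 3.05. Of the 11 cells, 4 had all 3 markers, 1 had 2, 4 had 1 and 2 had none. Among the 64 other cells 4 had 1 marker and 60 had none. In 20 further P7 midbrain cells without a cluster label, Meis2 was detected in 1 (74.5 FPKM), Meis1 in 5 (highest 54.1 FPKM) and Rprml in 3 (highest 48.6 FPKM).

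**Figure D1:**
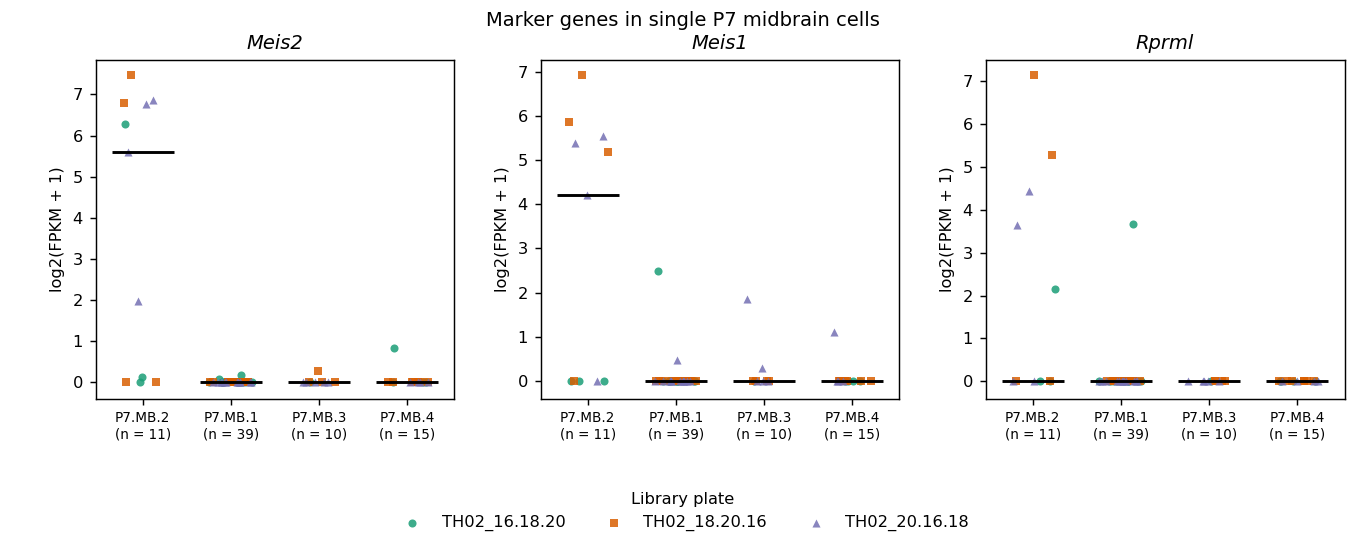
Each point is 1 cell, coloured by library plate, with log2(FPKM + 1) on the y axis and the 4 P7 midbrain clusters on the x axis; bars are medians. Meis2 reached 175 FPKM in P7.MB.2 and stayed below 1 FPKM in all 64 other cells, while 4 P7.MB.2 cells lay near 0 for Meis2 as well.

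Among the 12046 genes with a mean of 1 FPKM or more in either group, 1116 (9.26%) had a mean 2-fold or more above that of the other cells in P7.MB.2 and 1807 (15%) a mean 2-fold or more below it, and the median log2 fold was -0.14. These counts are the background for every list below. With 10 FPKM added in place of 1 they were 92 and 155.

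The dopaminergic machinery was low in P7.MB.2, although all the cells were labelled as dopaminergic neurons. Th (chromosome 7, 142892752 to 142931128, minus strand), the rate-limiting enzyme of dopamine synthesis, ran from 0.401 through a median of 21.9 to 197 FPKM in P7.MB.2. In the other clusters it ran from 506 through 1308 to 5350 FPKM. The groups did not overlap, so each P7.MB.2 cell had less Th than each other cell. The means were 59.5 ± 71.1 and 1735 ± 1098 FPKM, a log2 fold of -4.84, and -5.93 on plate TH02_18.20.16 alone. Th was still detected in 10 of the 11 cells.

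Slc6a3 (chromosome 13, 73536747 to 73578672, plus strand), the dopamine transporter and a defining marker of these neurons, did not reach 1 FPKM in any P7.MB.2 cell. Its values ran from 0 through a median of 0.363 to 0.931 FPKM, against 8.82 through 456 to 5193 FPKM in the others. Again no cell of either group overlapped, and detection was 0 of 11 (upper limit 28.5%) against 64 of 64. The means were 0.375 ± 0.355 and 800 ± 1031 FPKM, a log2 fold of -9.19, and -10.01 on plate TH02_18.20.16 alone. By this marker alone the labelled cell type was not borne out in P7.MB.2, and 1 marker does not settle it. Outside the midbrain at P7, Slc6a3 was detected in 0 of 20 P7.OB.1, 4 of 26 P7.FB.1 and 13 of 55 P7.FB.2 cells. In P7.OB.2 and P7.OB.3 it was detected in 28 of 33 and 12 of 15 cells.

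The vesicular transporter Slc18a2 was below every other cell in 8 of the 11 cells, at 4.58 ± 6.75 FPKM (median 0.559, highest 19.6) against 289 ± 246 (lowest 4.43, median 215). Its log2 fold was -5.70, and -6.30 on plate TH02_18.20.16 alone. Gch1 was below 1 FPKM in all 11 cells and had a mean of 84.6 ± 112 in the others, with a log2 fold of -6.29. That difference came from P7.MB.1 and P7.MB.4, since Gch1 had a mean of 0.0685 FPKM in P7.MB.3 too. The reporter transcript eGFP ran from 0 through 2.44 to 43.5 FPKM in P7.MB.2 and from 0 through 312 to 1522 FPKM in the others. It was detected in 6 of 11 against 63 of 64 cells, with a log2 fold of -5.55, and 2 of the 64 cells lay below the highest P7.MB.2 cell. Cells were sorted on the protein, and the level of the protein was not measured in these files.

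Of the 12 listed genes of dopamine synthesis, storage, reuptake and breakdown, all passed the filter, 7 were lower, 0 were higher and the median log2 fold was -1.99. The other 3 lower genes, named after their values were seen like all members in this paragraph, were Ddc, the autoreceptor Drd2 and the degrading enzyme Maoa. Ddc, the second enzyme of the pathway, had a mean of 53.6 ± 133 against 315 ± 328 FPKM (log2 fold -2.53). It was detected in 6 of 11 cells, and 1 cell at 450 FPKM held 76.2% of the sum. Drd2 was detected in 2 of 11 against 60 of 64 cells (3.04 against 38.4 FPKM, log2 fold -3.29), and Maoa in 7 against 55 (log2 fold -1.44). The cofactor enzymes Pts, Spr and Qdpr had log2 folds of -0.44, 0.12 and -0.18, and the degrading enzyme Maob of 0.19. The low genes were thus those for making, storing and recovering dopamine, while the pterin enzymes other than Gch1, and Maob among the breakdown enzymes, were within 2-fold. Against P7.MB.3 alone the median of these 12 genes was -0.16, against -2.09 over P7.MB.1 and -2.19 over P7.MB.4.

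**Figure D2:**
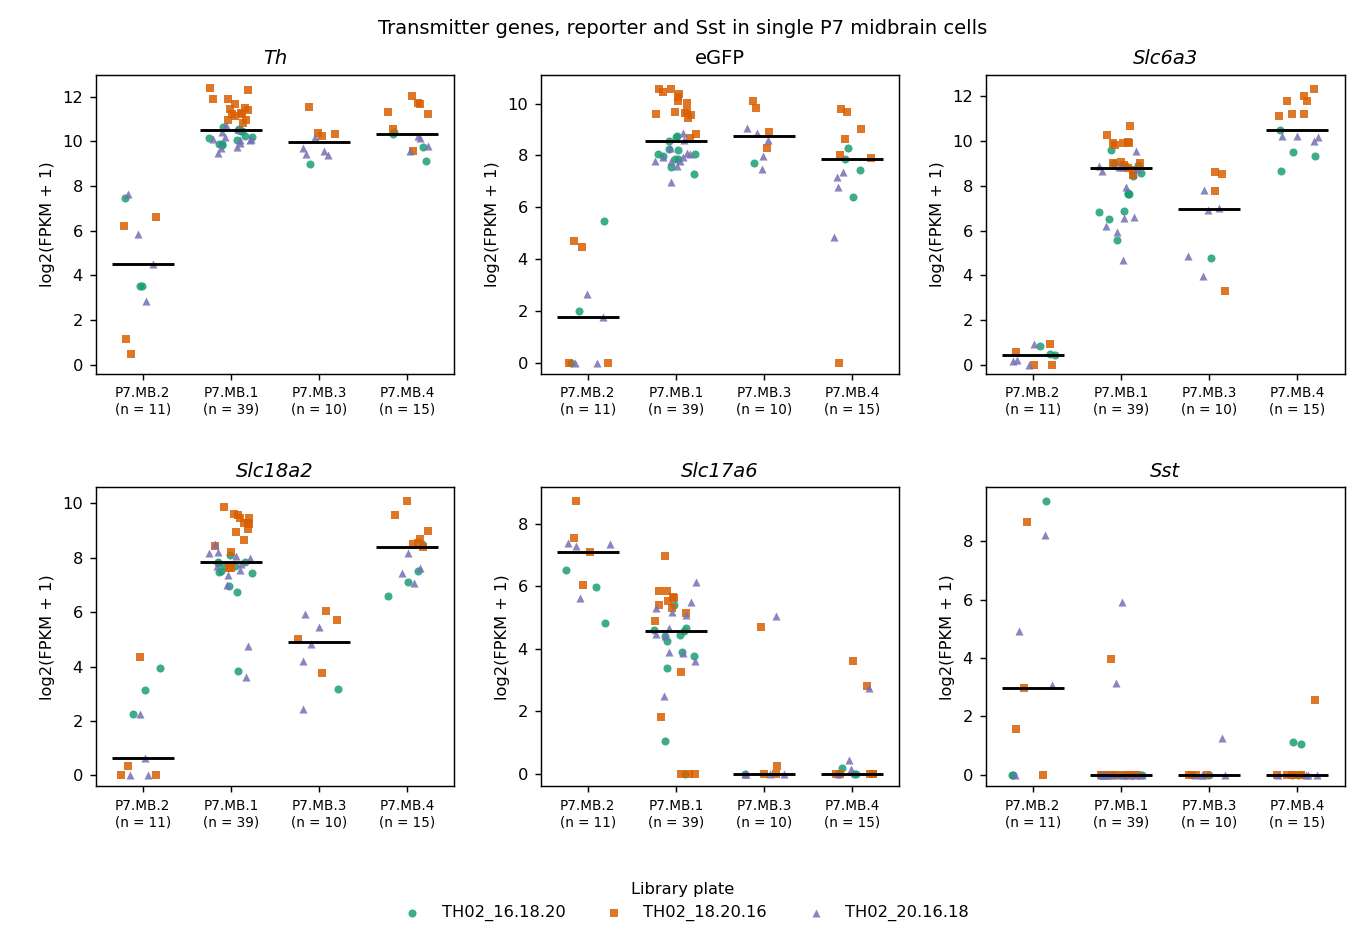
Each point is 1 cell, coloured by library plate, with log2(FPKM + 1) on the y axis; bars are medians. Th in P7.MB.2 (highest 197 FPKM) lay below the lowest other cell (506 FPKM), Slc6a3 stayed below 1 FPKM, and Slc17a6 was present in all 11 cells.

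The 16 listed identity genes of midbrain dopaminergic neurons gave the same picture: 15 passed the filter, 14 were lower, 0 were higher and the median log2 fold was -2.65. Pitx3, a transcription factor needed for nigral neurons, was listed at 0 in all 11 cells and detected in 50 of 64 others (mean 29.1 FPKM). Sox6, a factor of nigral progenitors and neurons, was also listed at 0 in all 11 and detected in 18 of 64. En1 had a mean of 0.521 ± 0.956 against 19.7 ± 18.4 FPKM (log2 fold -3.77), and 9 of the 11 cells lay below every other cell. Aldh1a1, a retinaldehyde dehydrogenase of ventral nigral neurons, had a mean of 9.27 ± 18.7 against 928 ± 1601 FPKM (log2 fold -6.50). The nicotinic subunit Chrna6 had a mean of 2.69 ± 7 against 218 ± 260 FPKM (log2 fold -5.89). Both of these were low in P7.MB.3 as well, against which P7.MB.2 was higher by 1.05 for Aldh1a1 and 1.70 for Chrna6 on the log2 scale. Foxa1 (log2 fold -2.62), Foxa2 (-1.50), Lmx1b (-1.70), Otx2 (-1.54), Klhl1 (-1.68), Slc10a4 (-2.65) and the neurotrophic receptor Ret (-2.75) were lower too, Foxa2 with 98.2% of its P7.MB.2 sum from 1 cell. Lmx1a (-0.99) was the member within 2-fold. Sox6, Nr4a2 and the genes of the last 2 sentences other than Ret were named after their values were seen.

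Nr4a2, an orphan nuclear receptor that drives Th, had a fold smaller in size than that of Th. It ran from 0 through 9.43 to 44.1 FPKM in P7.MB.2 and from 0.547 through 38.2 to 264 FPKM in the others. It was detected in 7 of 11 against 63 of 64 cells, with means of 16.5 ± 17.6 and 55 ± 47.2 FPKM and a log2 fold of -1.68. Most P7.MB.2 cells thus lay within the range of the others for this gene.

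The remaining genes among the 15 lowest were held by several classes. Cadps2, a vesicle priming factor (0.0759 against 29.9 FPKM), stayed below 1 FPKM in all 11 cells and was detected in 54 of 64. The imprinted gene Dlk1, a Notch-related ligand, had a mean of 1.71 ± 4.53 against 49.5 ± 51.4 FPKM (log2 fold -4.22), with 9 of 11 cells below every other cell. Slc39a4, a zinc transporter (log2 fold -4.73), Fam167a (-4.62) and C130021I20Rik, an RNA gene (-4.04), were detected in 1, 3 and 1 of the 11 cells against 50, 57 and 63 of 64. Ntf3, the neurotrophin, and Tacr3, the neurokinin B receptor, had log2 folds of -4.79 and -4.69 over the 3 clusters, and of 0.30 and 0.35 against P7.MB.3 alone.

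Of the 3 listed glutamatergic genes only Slc17a6 passed the filter, and it was higher. This vesicular glutamate transporter was detected in all 11 P7.MB.2 cells (100%, lower limit 71.5%) and in 40 of 64 others (62.5%, 49.5 to 74.3%). It was detected in 35 of 39 P7.MB.1, 2 of 10 P7.MB.3 and 3 of 15 P7.MB.4 cells, so most P7.MB.1 cells had it too. It ran from 27.2 through 136 to 423 FPKM in P7.MB.2 and from 0 through 11.2 to 123 FPKM in the others. The groups overlapped, with 6 of 11 cells above every other cell. The means were 138 ± 109 and 18 ± 22.6 FPKM, a log2 fold of 2.87, and 3.14 on plate TH02_18.20.16 alone. It was higher than in each cluster alone, by 2.29 over P7.MB.1, 4.37 over P7.MB.3 and 5.76 over P7.MB.4 on the log2 scale. The relatives Slc17a7 and Slc17a8 were detected in 1 and 0 of the 11 cells.

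GABA synthesis was found in few cells. Gad2 was detected in 3 of 11 P7.MB.2 cells, at 118, 122 and 14.4 FPKM, and in 1 of 64 others at 3.42 FPKM. The log2 fold of the means was 4.49, but on plate TH02_18.20.16 alone no P7.MB.2 cell had it and the log2 fold was -0.19. Gad1 was detected in 1 of the 11 cells, at 48.3 FPKM, and all 3 cells with Gad2 also had Slc17a6. The vesicular GABA transporter Slc32a1 was detected in 2 of the 11 cells, at no more than 4.61 FPKM, and in 0 of 64. Markers of noradrenergic neurons (Dbh, Pnmt, Phox2a, Slc6a2) were listed at 0 in all 75 cells, and Fev and Slc6a4 of serotonergic neurons likewise. The third serotonergic gene, Tph2, which makes serotonin's precursor, reached 0.295 FPKM in P7.MB.2 and was detected in 2 of 64 others, the higher at 43.6 FPKM (log2 fold -0.97). The cholinergic genes Chat, Slc18a3 and Slc5a7 stayed below 1 FPKM in all 11 cells.

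Sst, the neuropeptide somatostatin, had the second highest log2 fold, 5.74, among the genes named by rule. It ran from 0 through a median of 6.79 to 666 FPKM in P7.MB.2 and from 0 through 0 to 59.7 FPKM in the others. It was detected in 7 of 11 cells (63.6%) against 7 of 64 (10.9%), and 3 cells lay above every other cell. The means were 128 ± 226 and 1.42 ± 7.71 FPKM, and on plate TH02_18.20.16 alone the log2 fold was 5.89. The receptor Sstr2 was also higher (20.9 ± 28.5 against 1.67 ± 7.41 FPKM, log2 fold 3.03), in 7 of 11 against 4 of 64 cells.

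The 15 highest genes also held Nxph1, Nxph4, Cbln2 and Fam19a2. Nxph1, a neurexophilin that binds neurexins, had a mean of 65.6 ± 86.7 against 1.26 ± 8.16 FPKM (log2 fold 4.88) and was detected in 7 of 11 against 3 of 64 cells. Its relative Nxph4 had a mean of 48.7 ± 42.4 against 2.73 ± 7.43 FPKM (log2 fold 3.74), in 10 of 11 against 15 of 64 cells. Cbln2, a cerebellin that bridges neurexins and glutamate delta receptors, had a mean of 110 ± 129 against 12 ± 40.3 FPKM (log2 fold 3.10). The secreted protein gene Fam19a2 had a log2 fold of 3.02 and was detected in 9 of 11 against 15 of 64 cells. For each of the 4 genes some P7.MB.2 cells lay within the range of the others.

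Further genes of the highest 15 had various roles. Rgs10, a regulator of G-protein signalling, had a mean of 82.9 ± 112 against 2.52 ± 9.59 FPKM (log2 fold 4.57) and was detected in 9 of 11 against 10 of 64 cells. Rbfox1, a neuronal splicing factor, had a mean of 71.9 ± 49.7 against 6.47 ± 16.5 FPKM (log2 fold 3.29), in 10 of 11 against 13 of 64. The Ras exchange factor Rasgrf1 (log2 fold 3.37) was detected in 10 of 11 against 12 of 64, and the serotonin receptor Htr2c (3.14) in 6 of 11 against 10 of 64. Ldb2, a cofactor of LIM-homeodomain proteins, had a mean of 106 ± 122 against 13 ± 56.6 FPKM (log2 fold 2.94). The RNA genes 1110015O18Rik (4.05) and Gm2694 (2.97) were also named, the former with 62.5% of its P7.MB.2 sum from 1 cell.

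The gene whose level across the 75 cells was most like that of Meis2 was Lhx9, a LIM-homeodomain factor of the dorsal midbrain (Spearman rho 0.666, among 11223 genes). It was detected in 7 of 11 P7.MB.2 cells, the same 7 as Meis2, and in 2 of 64 others. Its values ran from 0 through 9.58 to 57.1 FPKM, with a mean of 14.5 ± 19.4 against 1.01 ± 7.47 FPKM and a log2 fold of 2.94. The highest of the others, a P7.MB.3 cell at 59.6 FPKM, lay above every P7.MB.2 cell, and the P7.MB.3 mean was 5.96 FPKM. On plate TH02_18.20.16 alone the log2 fold was 1.86. Trhr, the receptor of thyrotropin-releasing hormone (rho 0.574, log2 fold 4.03 over all plates and -0.51 on plate TH02_16.18.20 alone), Rgs10 (0.570), the potassium channel Kcnq5 (0.559) and Stxbp6, a syntaxin-binding protein (0.529), came next. These correlations describe 75 cells that share a pool and 3 plates, and most of the cells lack Meis2.

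Of the 18 listed TALE homeobox genes, 13 passed the filter, 6 were higher and 2 lower, with a median log2 fold of 0.66. Besides Meis1 and Meis2 the higher ones were the Meis partner Pbx3 (44.3 against 17 FPKM, log2 fold 1.33) and the Iroquois genes Irx2, Irx3 and Irx5. Irx2 was detected in 4 of 11 against 1 of 64 cells, and 1 cell at 109 FPKM held 76.2% of its sum. Irx3 and Irx5 were detected in 4 and 3 cells, at no more than 10.2 and 15.8 FPKM, and were listed at 0 in all 64 others. Mkx was listed at 0 in P7.MB.2. Pbx3, Irx3, Irx5 and Mkx were named after their values were seen. Of the 16 dorsal midbrain and tectal factors, 6 passed the filter, and Lhx9, Barhl1 and Zic1 counted as higher, the last 2 from a single cell each. Barhl1 was detected in 1 of 10 P7.MB.3 cells too, with means of 8.93 FPKM in P7.MB.2 and 8.66 in P7.MB.3. Without the highest cell of each gene, 1 factor was higher and 2 were lower. The list median was 1.23, and 0.14 over P7.MB.3 alone. Ebf1, detected in 1 of 11 against 29 of 64 cells, was lower (log2 fold -3.81).

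Lists of other regions, immature cells and glia were read in the same way. Of the 14 genes listed for olfactory bulb dopaminergic interneurons, 7 passed, 4 were higher and 0 lower. These were Meis2, Synpr (21 against 3.94 FPKM, log2 fold 2.15), Lgr5 with 73.7% of its sum from 1 cell, and Pax6 from 1 cell. Of the 15 hypothalamic genes 5 passed, 3 higher and 1 lower. Without the highest cell of each gene, 3 genes of either list were still higher and 2 of either were lower. Calcr, the calcitonin receptor, was detected in 2 cells at 137 and 128 FPKM and in 3 of 64 others (log2 fold -0.77 on plate TH02_18.20.16 alone, where no P7.MB.2 cell had it), and Ecel1, an endopeptidase, in 5 of 11 against 6 of 64. Of 17 genes of immature neurons and neuroblasts, 12 passed, 1 was higher, 1 was lower and the median log2 fold was 0.03. Of 8 microglial genes none passed, and of the 8 astrocyte genes only Slc1a2 did, at 2.01 against 19.1 FPKM. The oligodendrocyte list had 3 of 9 genes passing and none past 2-fold.

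Most genes of the nigral and tegmental lists were lower over the 3 clusters together, while both list medians were above 0 over P7.MB.3. Of the 15 genes associated with the substantia nigra, 14 passed, 1 was higher and 9 were lower (median log2 fold -1.56, and 0.40 over P7.MB.3 alone). Of the 14 associated with the ventral tegmental area, 13 passed, 2 were higher, Slc17a6 among them, and 9 were lower (median -1.24, and 0.48 over P7.MB.3 and -0.14 over P7.MB.4 alone). Calb1, a calcium-binding protein of tegmental neurons, had a mean of 4.98 ± 14.5 against 95.3 ± 105 FPKM (log2 fold -4.01) and was detected in 2 of 11 against 62 of 64 cells. Of the 8 genes of Vip-type neurons, 6 were lower and 1 higher. Vip itself, at 1.05 ± 1.4 against 908 ± 2925 FPKM, had means of 5657 FPKM in P7.MB.3, 38.8 in P7.MB.1 and 0.497 in P7.MB.4, so its log2 fold of -8.79 is mostly a difference from P7.MB.3.

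Receptors and channels differed gene by gene. Of 9 nicotinic subunits 6 passed, 4 were lower (Chrna6, Chrnb3, Chrna4 and Chrna3) and 0 higher, with a median log2 fold of -1.42. The median was -1.35 over P7.MB.1, 0.85 over P7.MB.3 and -2.07 over P7.MB.4. Of 14 trophic genes 9 passed, 5 were lower and 2 higher (0 higher without the highest cell of each gene), with a median of -1.20, and 0 over P7.MB.3 alone, and the GDNF co-receptors Gfra1 (-1.20) and Gfra2 (-1.56) and Bdnf (-1.42) were among the lower. Of 26 potassium channel genes 24 passed, with 3 higher and 5 lower, near the shares of all genes. Of their auxiliary KChIP subunits Kcnip1 (log2 fold 1.78) and Kcnip2 (2.22) were higher, Kcnip4 (-2.36) was lower and Kcnip3 had a log2 fold of -0.39. Kcnip1 and Kcnip3 were named after their values were seen. Of 32 subunits of GABA-A and glutamate receptors 31 passed, 7 were higher and 3 lower (5 and 5 without the highest cell of each gene), with the kainate subunit Grik1 (2.29) and Gabrg1 (1.98) among the higher and Gabra4 (-1.51) among the lower. On plate TH02_16.18.20 alone Grik1 and Gabrg1 had log2 folds of -1.80 and -0.60, and on plate TH02_20.16.18 alone Gfra2 had one of 0.68.

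Of 33 axon guidance genes 31 passed, 10 were lower and 5 higher (median log2 fold -0.52, and -0.08 over P7.MB.3 and -0.12 over P7.MB.4 alone). Over all genes, too, more were lower than higher. Ntn1, the guidance cue netrin, and its receptor Dcc had log2 folds of -2.95 and -2.57, and each was detected in 3 of 11 against 53 of 64 cells. Slit2, the repellent, had a log2 fold of -2.51, and the semaphorin receptor Nrp1 one of 1.92 (-1.10 on plate TH02_16.18.20 alone). Against P7.MB.3 alone Ntn1 and Slit2 had log2 folds of 0.92 and 0.07.

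None of 17 nuclear oxidative phosphorylation genes passed 2-fold (median log2 fold -0.0030), and 3 of 20 synaptic vesicle genes were lower, the same share as the 15% of all genes. These were the vesicle proteins Sv2c (4.72 ± 9.85 against 58.4 ± 52.6 FPKM, log2 fold -3.38), Syt1 (-1.12) and Cplx2 (-1.01, and 0.10 on plate TH02_20.16.18 alone).

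**Figure D3:**
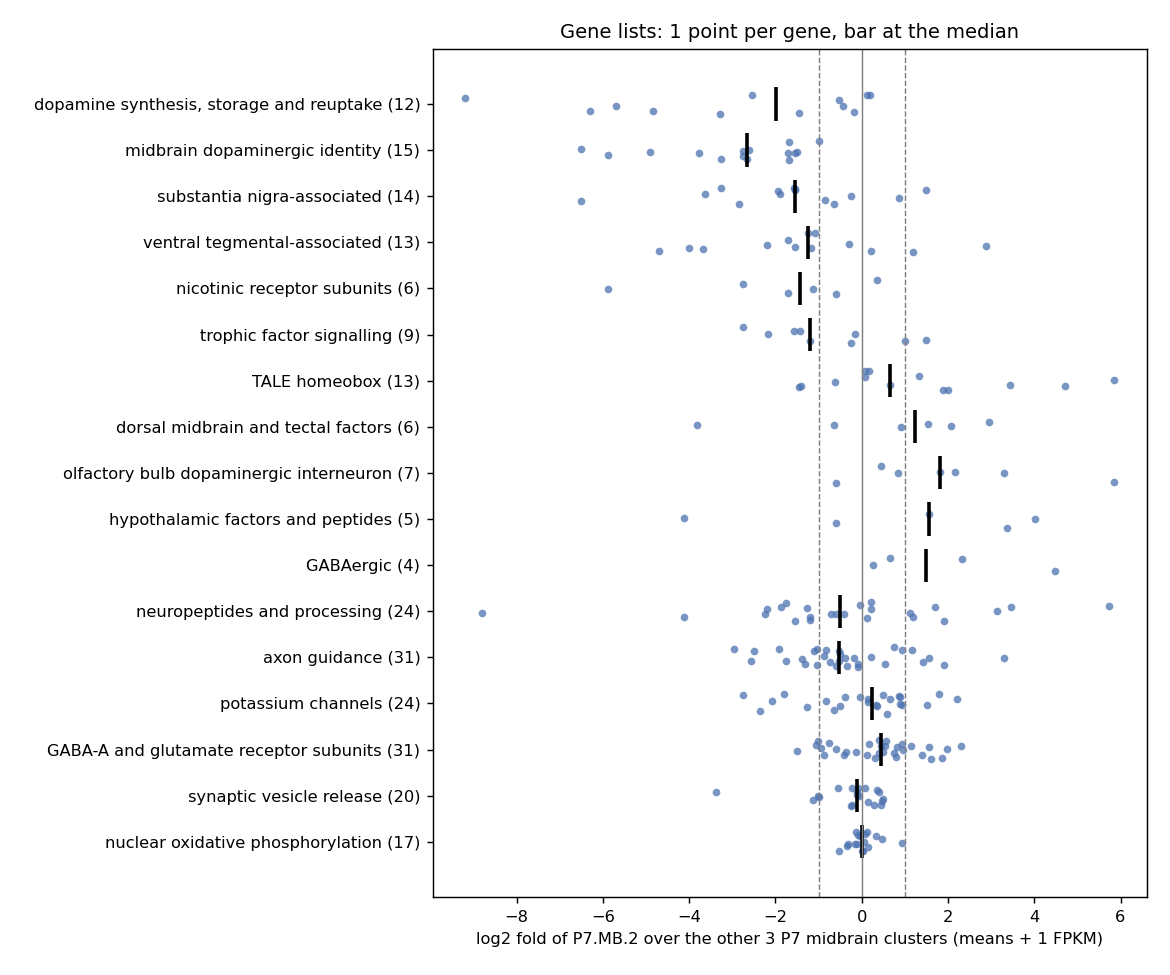
Each point is 1 gene with a mean of 1 FPKM or more in either group, with the log2 fold of P7.MB.2 over the 64 other cells on the x axis; black bars are list medians, dashed lines mark 2-fold, and the number of genes is in parentheses. The dopamine (median -1.99) and midbrain identity (-2.65) lists lay to the left, while oxidative phosphorylation genes stayed within 2-fold.

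The 11 cells differed in which identity genes they had. Per cell, 1 to 9 of the 16 identity genes were detected (median 4), against 6 to 15 (median 11) in the 64 others. The counts were 4, 8, 9 and 9 in the 4 cells without Meis2, and 1 to 6 in the 7 cells with it. Slc10a4 and Ret were each detected in all 4 cells without Meis2 and in 1 of the 7 with it. Foxa1 was detected in 2, Foxa2 in 1 and Lmx1b in 1 of the 4 cells without Meis2, and none of the 3 in the 7 with it. Lmx1a and the nicotinic subunit Chrnb3 were each detected in 3 of 4 and 1 of 7. Other identity genes differed less or not in this direction. Nr4a2 was detected in 3 of 4 and 4 of 7, and En1 in 1 of 4 and 1 of 7. Aldh1a1 was detected at 48.5, 4.07 and 1.57 FPKM in cells with Meis2, and at 45.6 FPKM in 1 cell without it. The split was seen in the values of these cells and has no test. The cells without Meis2 were 2 of the 4 on plate TH02_18.20.16, 2 of the 3 on plate TH02_16.18.20 and 0 of the 4 on plate TH02_20.16.18, and the part of the plate in this was not tested. Between pairs of P7.MB.2 cells, Pearson r over 11137 genes had a median of 0.556 (55 pairs). It was 0.561 within P7.MB.1, 0.505 within P7.MB.3 and 0.645 within P7.MB.4, and 0.540 between a P7.MB.2 cell and a cell of another cluster (704 pairs).

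**Figure D4:**
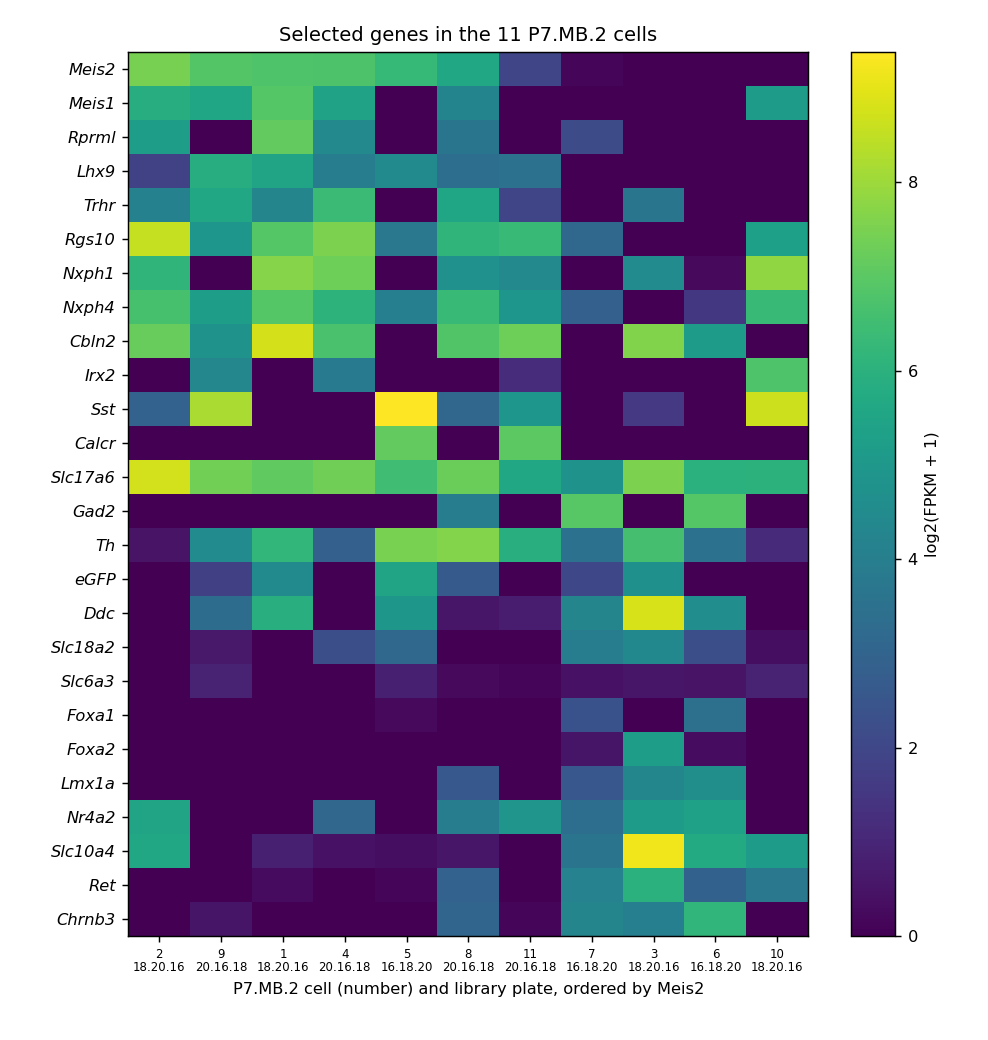
Colour gives log2(FPKM + 1) of 26 genes (rows) in the 11 P7.MB.2 cells (columns, ordered by Meis2, with the library plate below). Slc17a6 was present in every column, while Ret and Slc10a4 were detected in all 4 columns at the right, which lack Meis2.

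Outside the P7 midbrain, Meis2 was detected in 55%, 90.9% and 93.3% of the cells of the P7 olfactory bulb clusters P7.OB.1, P7.OB.2 and P7.OB.3, and in 22 of 55 P7.FB.2 forebrain cells (40%). At embryonic day 15.5 it was detected in 95.8% of E15.FB.2, 45% of E15.FB.1, 44.1% of E15.MB.1 and 5% of E15.MB.2 cells. Lhx9 was more restricted, with 46 of 68 E15.MB.1 cells (67.6%) and at most 10% in any of the other 11 clusters. Rprml was detected in 35% of P7.OB.1 and 27.3% of P7.OB.2 cells. Among the P7 clusters P7.MB.2 had the lowest mean Th, and P7.OB.1 the next (149 ± 279 FPKM, n = 20 cells), whose spread overlaps it. The mean log2 profile of P7.MB.2 had Pearson r of 0.945 with P7.FB.2, 0.923 with P7.MB.1 and 0.902 with P7.MB.4, over 11137 genes. The r was 0.871 with P7.FB.1, 0.870 with P7.MB.3 and 0.861 with E15.MB.1. The clusters differ in cell number, from 10 to 68, and E15.MB.1 differs in age and library plates as well. The part of these in the values was not tested.

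**Figure D5:**
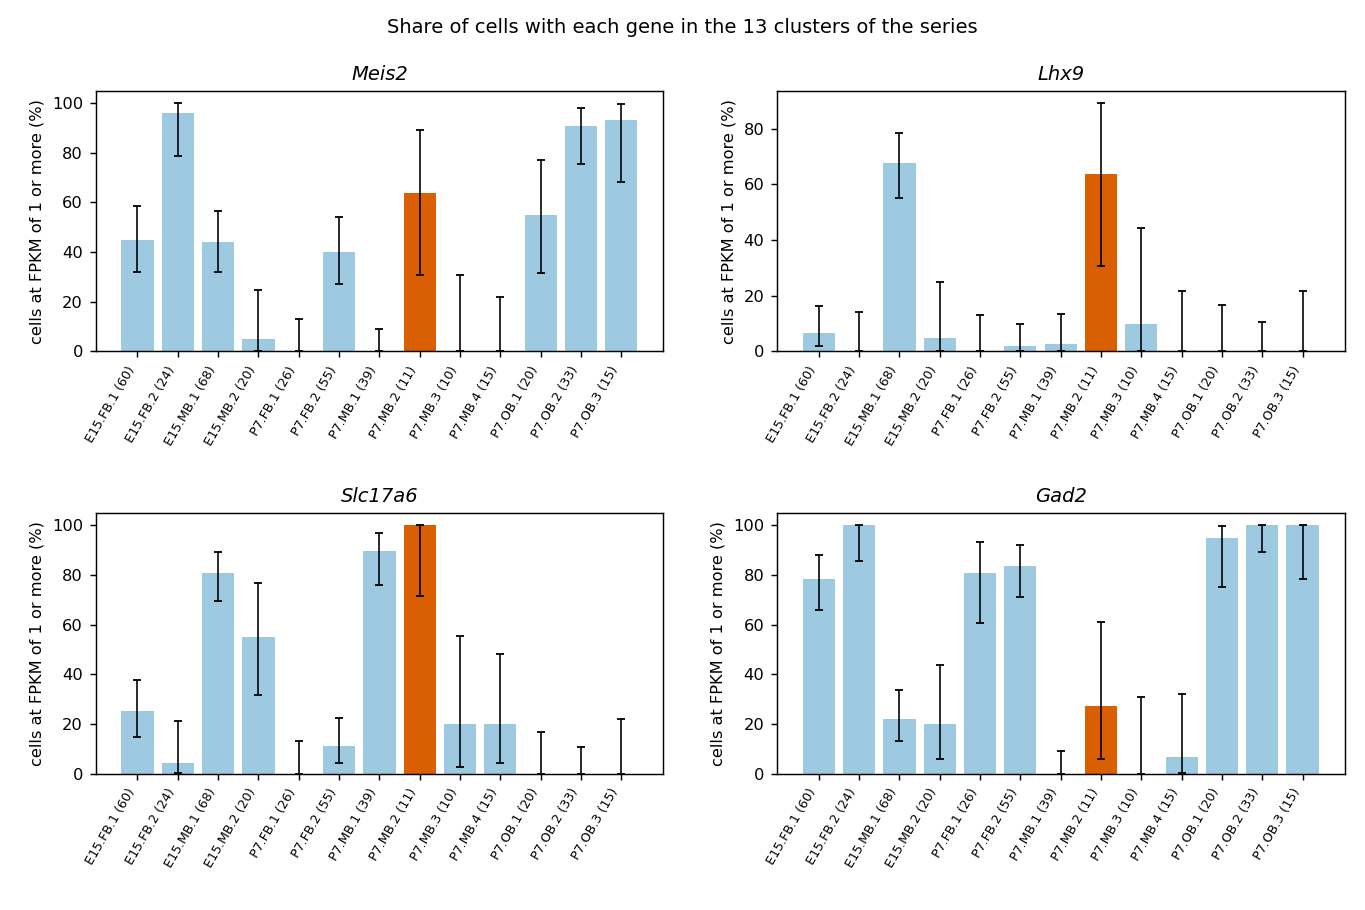
Bars give the percentage of cells at an FPKM of 1 or more in each cluster (cell number in parentheses), with exact binomial 95% intervals; P7.MB.2 is in orange. Lhx9 reached 63.6% in P7.MB.2 and 67.6% in E15.MB.1, and Slc17a6 100% in P7.MB.2, 89.7% in P7.MB.1 and 80.9% in E15.MB.1.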

How the data were processed

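Single cells were profiled with Smart-Seq2, in which the whole polyadenylated RNA of a sorted cell is copied and amplified, here with 20 preamplification and 14 enrichment cycles per the labels. The authors deposited 1 table of FPKM values, 28952 features by cell. The submitters' processing notes name HISAT2, Cuffnorm and mm10, without versions, and no count table was used here. Feature identifiers were matched to GENCODE M21 gene names, and 28636 had a symbol. Columns of 2 library plates were exchanged well by well as described in the report, because gene numbers then matched the labels.

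Groups came from the cluster label of each cell. Per gene, the mean FPKM of the 11 P7.MB.2 cells and of the 64 other cells were compared as log2((mean + 1)/(mean + 1)), which understates the change of low genes. Genes with a mean of 1 FPKM or more in either group were counted, as higher or lower at 2-fold or more. Over the 3 plates together, no fold is given for a gene listed at 0 in a whole group. On a single plate, a value with 1 group at 0 rests on the added FPKM and is no bound. Intervals of detection shares are exact binomial (Clopper-Pearson, 95%). Python 3.11.15, numpy 2.4.6, pandas 2.3.3 and scipy 1.17.1 were used, and the calculation was tested on simulated data with known folds. No test was run: all 75 cells come from 1 pool of mice and the labels from the same expression values.

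Named genes were the 15 highest and 15 lowest log2 folds among genes with a mean of 20 FPKM or more in the higher group, detected in 50% or more of that group, whose sign held on all 3 plates and in the mean of log2 values. Meis2, Meis1, Rprml, Th and Slc6a3 were always named. Up to 4 genes per list with a mean of 10 or more, all members of lists of 5 genes or fewer, and the 5 genes most like Meis2 among those detected in at least 10% of cells were added. The members and the 38 gene lists were chosen with earlier results of these data known, and some genes are not reported here. Alternatives tried were each plate alone, no exchange, pseudocounts of 10 and 0.1, a minimum mean of 10 and none, means of log2 values, rescaled totals, leaving out the highest cell, equal weight of clusters, and other cells limited to the same range of gene numbers.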

Additional observations from a re-analysis of the deposited data

Results flagged for a closer look

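In groups of 4 to 10 cells, a cell was looked at again when its gap to the nearest other cell took up most of the range of its group (Dixon's 95% criterion). Chance alone flags about 5% of such groups, and FPKM values of single cells are far from normal. Only P7.MB.3 with its 10 cells is small enough, and 3 of the 6 measures looked at there met the criterion. Meis2 was 0.210 FPKM in 1 P7.MB.3 cell and 0 in the others. Meis1 was 2.60 FPKM in 1 P7.MB.3 cell, the only 1 of that cluster at 1 FPKM or more. Th was 3006 FPKM in 1 P7.MB.3 cell, where the cluster mean was 1147 FPKM.

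Outside the comparison, 1 of the 20 P7 midbrain cells without a cluster label had Meis2 at 1 FPKM or more, which none of the 64 labelled cells of the other clusters had. That cell, on plate TH02_20.16.18, had 74.5 FPKM of Meis2, 22.0 of Meis1, 48.6 of Rprml, 79.4 of Th and 0.271 of Slc6a3, with 5265 genes in the labels. These cells had not passed the quality control recorded in the labels, and the cell was added to no group. Among the same 20 cells Meis1 was detected in 5 and Rprml in 3, against 3 and 1 of the 64 labelled cells.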

How the results depend on the processing

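Of the 91 named genes past 2-fold, all 91 kept their direction with pseudocounts of 10 or 0.1, a minimum mean of 10 or none, means of log2 values, rescaled totals, equal weight of clusters, or other cells in the same range of gene numbers. On plate TH02_18.20.16 alone Calcr (-0.77) and Gad2 (-0.19) turned. On plate TH02_16.18.20 alone, with 3 P7.MB.2 cells, Gabrg1 (-0.60), Gad1 (-0.10), Grik1 (-1.80), Lgr5 (-0.30), Cntn5 (-0.65), Meis1 (-0.35), Nrp1 (-1.10), Trhr (-0.51) and Zic1 (-0.0069) turned. On plate TH02_20.16.18 alone Cplx2 (0.10), Gfra2 (0.68) and Lgr5 (-0.016) turned. Without the exchange Calcr (-3.45), Gad2 (-0.14), Gal (1.24), Pbx3 (-0.27) and Scn8a (-0.056) turned. Genes seen in 1 P7.MB.2 cell, such as Barhl1 and Zic1, fell to 0 without it.

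The counts of genes moved more. The 1116 higher genes became 2152 on plate TH02_20.16.18 alone, 92 with pseudocount 10, 280 at a minimum mean of 10, 671 with means of log2 values and 397 without the highest cells. The 1807 lower genes became 4285 on plate TH02_18.20.16 alone and 155, 508, 599 and 2834 under those same last 4 settings, and 1120 with rescaled totals. The median over all genes was -0.42 on plate TH02_18.20.16, 0.12 on plate TH02_20.16.18, 0.02 with rescaled totals and -0.48 without the highest cells.

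The dopamine list median of -1.99 became -1.57 on plate TH02_20.16.18, -1.39 with pseudocount 10, -2.53 at a minimum mean of 10, -2.60 with means of log2 values and -2.83 without the highest cells. Over P7.MB.1 (-2.09) the same settings gave -1.74, -1.39, -2.59, -2.64 and -2.79. Over P7.MB.4 (-2.19) it became -1.54 on plate TH02_20.16.18, -1.65 with pseudocount 10, -3.24 with means of log2 values, -3.06 without the highest cells and -1.68 in the same range of gene numbers. Over P7.MB.3 it was -0.21, in place of -0.16, with the filter applied to P7.MB.2 and P7.MB.3 alone. From -0.21 it became -0.81 without the exchange, -1.66 at a minimum mean of 10 and -0.59 in that range. The identity list median of -2.65 became -3.91 on plate TH02_18.20.16 and -1.30 with pseudocount 10. It became -1.40 and -3.64 over P7.MB.1 (-2.64) with pseudocount 10 and without the highest cells, -2.71 and -2.67 over P7.MB.3 (-1.18) on plate TH02_20.16.18 and without the highest cells, and -1.44 over P7.MB.4 (-2.87) on plate TH02_16.18.20. The cause of these shifts was not tested. No paired analysis was possible because cell numbers within clusters name cells and pair none.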

Other observations

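Several gene groups outside the sections above also differed in single members. Of 26 neuropeptide and peptide-processing genes 24 passed the filter, 7 were higher and 10 lower in P7.MB.2, against the 9.26% and 15% of all genes. Without the highest cell of each gene, 1 was higher and 11 were lower. Besides Sst the higher ones included Nts, whose P7.MB.2 sum came from 1 cell at 113 FPKM. Galanin (Gal) was at 0.329 ± 0.93 against 22.1 ± 62.1 FPKM (log2 fold -4.12), and the enkephalin precursor Penk at 21.1 ± 42.7 against 63.8 ± 138 FPKM (log2 fold -1.55). Of 37 adhesion genes all 37 passed, 5 were higher and 8 lower (4 and 14 without the highest cell of each gene). The contactin Cntn5 was at 18.6 ± 31.2 against 2.07 ± 5.76 FPKM (log2 fold 2.67), with 3 of 11 cells above every other cell, and -0.65 on plate TH02_16.18.20 alone. Of 10 calcium-binding protein genes 9 passed, with neurocalcin Ncald higher (107 ± 81.7 against 45.6 ± 44.1 FPKM, log2 fold 1.21), detected in all 11 and in 57 of 64 cells, and Calb1 lower. Of 23 calcium, sodium and Hcn channel genes 21 passed, 4 were higher and 3 lower (2 and 3 without those cells), and the sodium channel Scn8a was at 14.3 ± 15.3 against 5.28 ± 10 FPKM (log2 fold 1.28). Of 14 immediate early genes 10 passed, 3 were higher and 1 was lower (1 and 1 without those cells). Fos was at 31.3 ± 38 against 17.9 ± 33.4 FPKM (log2 fold 0.77).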
